A study of Homo sapiens with 11 samples.

Results

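This account is about 616 sites of the glucocorticoid receptor (GR) listed in a cell line that expresses a SUMOylation-defective form of it. At these sites GR was not listed in the line with the wild-type receptor, and SUMO-2/3 was listed in at least 1 of these lines. GR is a steroid hormone receptor that binds DNA when a glucocorticoid is present, and it can be modified on lysines by small ubiquitin-like modifiers (SUMO). SUMO-2 and SUMO-3 are near-identical members of that family and are seen by 1 antibody here. They are attached to many chromatin proteins, so SUMO-2/3 at a GR site does not say which protein carries it. Lysine-to-arginine changes at SUMO acceptor sites of a receptor prevent its own modification but leave the SUMO system of the cell intact.

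The sites were chosen by the authors' peak lists. They are the sites of the 3KR GR list that share no base with a wild-type GR site and share at least 1 bp with a SUMO-2/3 site of the wild-type or the 3KR line. GR binding, its absence from the wild-type list and the presence of SUMO-2/3 are thus what the rule used, and they are given as descriptions without tests. Of 18856 GR sites in the 3KR list, 8854 (47.0%) had no wild-type GR site, and of these 616 (6.96%, exact Clopper-Pearson 95% interval 6.44 to 7.51) had SUMO-2/3. Over the whole 3KR GR list, 5125 sites (27.2%) had SUMO-2/3 in either line.

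All cells were HEK293, a human embryonic kidney line, made isogenic with the Flp-In recombination system and kept under hygromycin-B. One line stably expressed wild-type GR, one GR3KR (the 3KR line), and the control line (FRT) no added GR. The control line still had 1016 listed GR sites. GR signal in the 3KR and wild-type lines therefore cannot be assigned to the added receptor alone. Every group was held in steroid-depleted medium for 72 h and then given 100 nM dexamethasone, a synthetic glucocorticoid, for 1 h. The labels give neither the promoter that drives the transgene nor whether a line is a single clone, and none of the samples described here lacked hormone. Chromatin immunoprecipitation with sequencing was done for GR and for SUMO-2/3, with 2 libraries per antibody in the wild-type line, 2 in the 3KR line, and 1 GR library in the control line. ChIP-seq gives no expression values, so the labelled cell type could not be checked against marker genes.

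The 2 libraries of a group share 1 list of sites. Tags inside listed peaks summed to 4696781 and 4291083 in 3KR GR libraries 1 and 2, and to between 1127839 and 3489624 in the other duplicate libraries. Total sequencing depth is unknown, and no listed peak had fewer than 51 tags or a fold enrichment under 8.01, so a site that is not listed may still hold signal below those limits. Tags in listed peaks summed to more in the 3KR GR libraries than in the wild-type ones (1868745 and 3489624), over 18856 sites against 11259. Median tags per listed site were 195 and 172.5 in 3KR libraries 1 and 2, and 131 and 241 in the wild-type ones. When the 3KR tags and folds were scaled to wild-type library 1 or 2 at GR sites of both lines, and the listing limits were applied again, 375 and 251 members remained. Intervals on shares cover the counting of sites only. Sites are not replicates of a line, and each line is 1 cell population.

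The 616 members fell into 3 classes by the line in which SUMO-2/3 was listed. SUMO-2/3 was listed in the 3KR line only at 278 sites (3KR-SUMO sites), in both lines at 174 (both-line sites) and in the wild-type line only at 164 (wild-type-SUMO sites). The wild-type-SUMO class holds SUMO-2/3 of a line that has no listed GR there, so at these 164 sites GR and SUMO-2/3 were not listed together in any 1 line. The order of the classes rests on weak SUMO-2/3 peaks: with SUMO-2/3 fold at or above the list median in both libraries, 45 3KR-SUMO, 53 both-line and 51 wild-type-SUMO sites remained. Among both-line sites the 3KR and wild-type SUMO-2/3 sites shared no base in 1 case. Near misses between the SUMO-2/3 lists were counted too: 6 of the 278 3KR-SUMO sites had a wild-type SUMO-2/3 site within 500 bp, and 15 of the 164 wild-type-SUMO sites had a 3KR one.

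GR enrichment differed between the classes in the 3KR line. The fold enrichment is the authors' ratio for each peak and library, and how its background was set is not stated. Its median in libraries 1 and 2 was 17.2 and 12.7 at 3KR-SUMO sites, 12.3 and 12.7 at wild-type-SUMO sites and 12.7 and 11.6 at both-line sites. At the 8238 3KR-only GR sites without SUMO-2/3 it was 14.96 and 10.4, and at the 10002 sites with GR in both lines 27.2 and 17.8. The members lay near the other 3KR-only sites and below sites with GR in both lines. Within the 3KR list, the median rank by fold (mean rank of both libraries) was 10327 for 3KR-SUMO, 13020 for wild-type-SUMO and 13526 for both-line sites, against 13700 for 3KR-only sites without SUMO-2/3. In tags, the median in library 1 was 235 at 3KR-SUMO, 117 at wild-type-SUMO and 166 at both-line sites, and in library 2 it was 233, 151 and 202. The stronger part of the 3KR list by rank held 121 of 278 3KR-SUMO sites (43.5%), 35 of 164 wild-type-SUMO sites (21.3%) and 28 of 174 both-line sites (16.1%), against 19.3% of 3KR-only sites without SUMO-2/3. The 3KR-SUMO class lay highest in the list, and the median ranks of the other classes lay close to that of 3KR-only sites without SUMO-2/3.

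**Figure D1:**
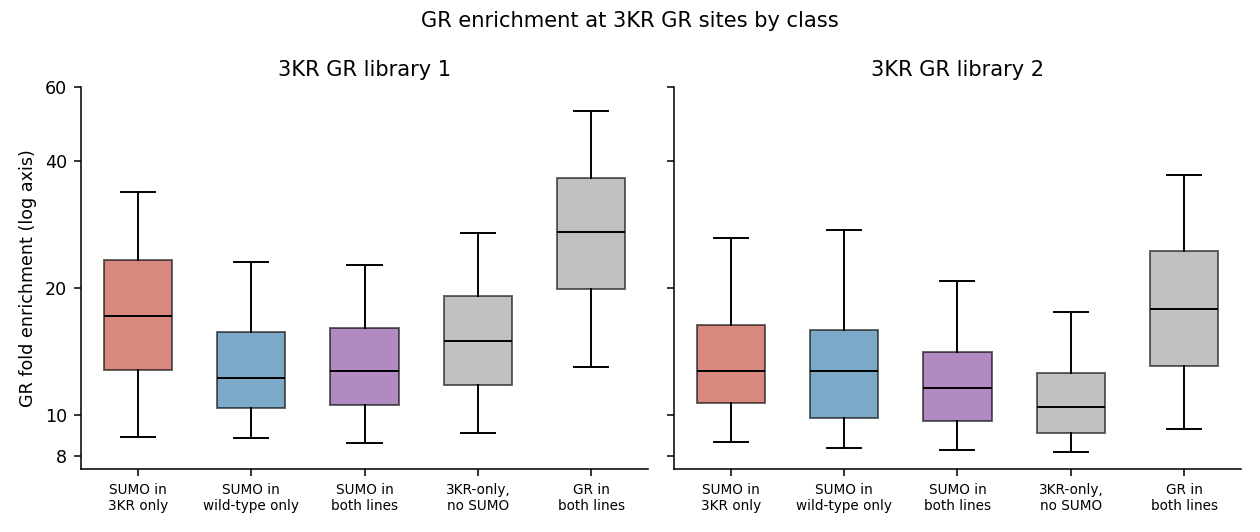
GR fold enrichment (log axis) in 3KR GR libraries 1 and 2 for the 3 classes of members, for 3KR-only GR sites without SUMO-2/3 and for sites with GR in both lines. Boxes give quartiles and the median and whiskers the 5th and 95th percentiles over sites. In library 1 the median of 3KR-SUMO sites (17.2) lies above those of the other member classes (12.3 and 12.7), with overlapping boxes, while in library 2 the 3 medians lie between 11.6 and 12.7.

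Over all 3KR-only sites, the share of 3KR-SUMO sites was lower where GR was weaker. The 8854 3KR-only sites were cut into 5 equal parts by GR fold. In the strongest part 120 of 1771 sites (6.78%, 5.65 to 8.05) were 3KR-SUMO sites, against 59 (3.33%), 49 (2.77%), 22 (1.24%) and 28 (1.58%) in the following parts. The wild-type-SUMO share was 1.92% in the strongest and 1.64% in the weakest part and did not pass 2.37% in any. The both-line share was 1.58% and 1.69% at the ends and 2.48% at most. Median GR fold fell from 23.3 and 15.1 (libraries 1 and 2) in the strongest part to 10.4 and 8.53 in the weakest. Within 10 Mb windows where GR tags were even between the lines (defined below), the 3KR-SUMO share ran from 6.39% in the strongest part to 1.95% in the weakest. There the wild-type-SUMO share was also lower in the weaker parts, at 3.14%, 3.31%, 1.96%, 1.24% and 1.46% from the strongest to the weakest, so the contrast between these classes was smaller in even windows.

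**Figure D2:**
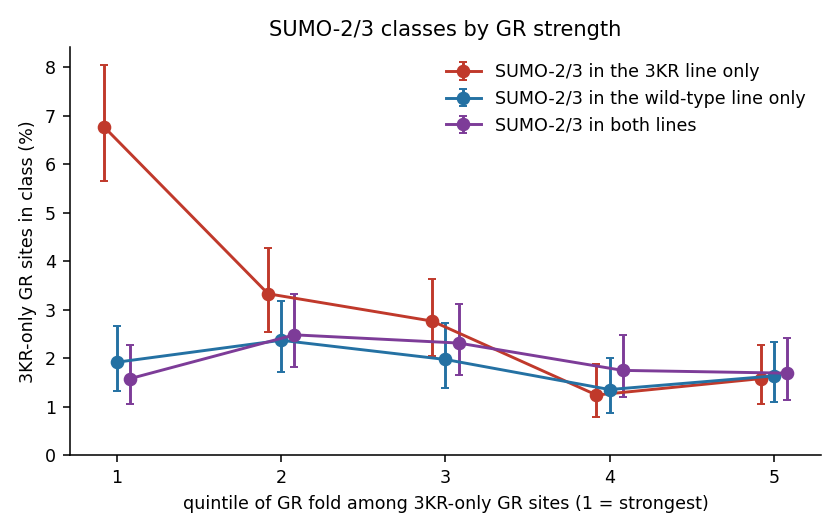
Share of 3KR-only GR sites (percent, vertical axis) that belong to each SUMO-2/3 class, by quintile of 3KR GR fold (1 is the strongest). Points are shares and bars exact 95% Clopper-Pearson intervals. The 3KR-SUMO class starts at 6.78% and reaches 1.58%, while the other classes lie between 1.36% and 2.48% in every quintile.

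A lower share of SUMO-2/3 listed in the 3KR line alone at weaker GR was not particular to the members. At sites with GR in both lines it was 452 of 7645 (5.91%) in the rank range of the strongest quintile, which there reaches up to rank 1, and 2.29%, 1.09%, 1.02% and 0% in the following ranges. SUMO-2/3 listed in the wild-type line alone differed more between these kinds of sites. In the first range it lay at 21.5% of sites with GR in both lines and 1.92% of 3KR-only sites. In the second it was 183 of 1136 (16.1%) against 2.37%, in the third 103 of 643 against 1.98%, and in the fourth 15.1% against 1.36%. In the range of the fifth quintile, 34 of 186 sites with GR in both lines had it, and 0 had SUMO-2/3 of the 3KR line alone, which allows a share of up to 1.96%. SUMO-2/3 of the wild-type line alone was thus listed less often at 3KR-only sites of like GR fold. The 3KR-only sites were set apart by having no listed wild-type GR. Whether that bears on SUMO-2/3 there was not tested.

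The strongest members by GR rank were 3KR-SUMO sites, most of them with a weak SUMO-2/3 peak. At chr5:42502463-42503890, rank 281 of the 3KR list, GR had 514 tags in library 1 and 543 in library 2, at folds of 56.9 and 39.4. SUMO-2/3 in the 3KR line had 127 and 290 tags there, at folds of 8.47 and 14.1, which placed it at rank 6155 of 7784. The nearest wild-type GR site lay 5301 bp away. A pair of members lay close together on chromosome 2. At chr2:138828640-138830735 GR had 555 and 533 tags (folds 47.7 and 32.9) and 3KR SUMO-2/3 144 and 387. At chr2:138808211-138809195 GR had 325 and 233 tags (48.5 and 26.7) and SUMO-2/3 65 and 100. Both libraries listed GR well above its limit at these sites, whereas SUMO-2/3 was near its limit in library 1, at folds of 8.26 and 8.74.

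Of the next strongest 3KR-SUMO sites, 2 also had SUMO-2/3 near its limit and 1 did not. At chr5:57785656-57786682 GR had 366 and 269 tags and SUMO-2/3 74 and 122, with no wild-type GR site within 529562 bp. At chr3:155336616-155337540 GR had 281 and 202 tags and SUMO-2/3 58 and 119, at SUMO-2/3 folds of 11.7 and 15.5 and rank 3410 of 7784, in the stronger part of that list. At chr18:5500204-5501374 GR had 458 and 425 tags and SUMO-2/3 109 and 206, at folds of 8.13 and 9.70. Of these 6 sites, 5 ranked between 6155 and 7699 in the 3KR SUMO-2/3 list of 7784.

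The both-line members of highest GR rank lay lower in the GR list. At chr1:3026161-3027542, rank 3912 for GR, GR had 335 and 279 tags in the 3KR libraries. SUMO-2/3 had 110 and 200 tags in wild-type libraries 1 and 2 and 84 and 149 in 3KR libraries 1 and 2. At chr2:105535510-105536274 GR had 210 and 154 tags, wild-type SUMO-2/3 67 and 147, and 3KR SUMO-2/3 96 and 194. These are tags as deposited, from libraries of unequal depth. The wild-type line had the higher values at the chromosome 1 site and the 3KR line at the chromosome 2 site. At chr1:161941304-161942395, GR had 261 and 308 tags, and SUMO-2/3 had 85 and 131 tags in the wild-type line against 137 and 349 in the 3KR line.

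Wild-type-SUMO members of the highest GR rank included narrow stretches. The first, chr17:77022294-77022364, is 71 bp wide and shares 2 bp with its SUMO-2/3 site. The second, chr8:26467519-26467562, is 44 bp wide and shares 6 bp. The next ones were of ordinary width. At chr7:30721169-30722010 GR had 120 and 227 tags and wild-type SUMO-2/3 144 and 258. At chr22:24552656-24553612 GR had 142 and 265 tags and SUMO-2/3 59 and 127. At chr15:74678885-74679634 GR had 124 and 185 tags and SUMO-2/3 76 and 123. In all of these library 2 held the higher GR fold: 34.5 against 22.4 on chromosome 7, 28.2 against 23.3 on chromosome 22 and 27.1 against 23.1 on chromosome 15.

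That order of the libraries was common among members and rare elsewhere. In the 3KR GR list as a whole, 10.9% of sites had a higher fold in library 2 than in library 1. Among members it was 215 of 616 (34.9%, 31.1 to 38.8), with 25.2% of 3KR-SUMO, 37.9% of both-line and 48.2% (40.3 to 56.1) of wild-type-SUMO sites. Of 3KR-only sites without SUMO-2/3 it was 13.7% (13.0 to 14.5), and of GR sites in both lines that carry SUMO-2/3 8.92%. In the strongest quintile of 3KR-only sites it was 22 of 34 wild-type-SUMO sites (64.7%) and 7.87% of sites without SUMO-2/3. In the weakest quintile it was 6 of 29 (20.7%, 7.99 to 39.7) and 14.3%. The order of 3KR-SUMO below wild-type-SUMO sites did not hold at weaker GR. In the fourth quintile it was 10 of 22 3KR-SUMO (45.5%) and 6 of 24 wild-type-SUMO sites (25.0%). In the weakest it was 8 of 28 3KR-SUMO sites (28.6%). The cause was not tested.

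SUMO-2/3 enrichment split the members differently from GR. Median SUMO-2/3 fold in 3KR libraries 1 and 2 was 9.37 and 12.3 at the 274 SUMO-2/3 sites of the 3KR-SUMO class and 11.0 and 16.2 at the 175 of the both-line class, against 10.8 and 15.9 over all 7784 sites of that list. In wild-type libraries 1 and 2 it was 9.38 and 13.5 at the 162 SUMO-2/3 sites of the wild-type-SUMO class and 11.2 and 16.02 at the 173 of the both-line class, against 11.3 and 15.9 over the list of 12109. Both-line members thus carried SUMO-2/3 near the middle of its whole list, and single-line members SUMO-2/3 from its weaker part. All SUMO-2/3 sites listed in both lines had higher medians than both-line members. These were 11.8 and 17.5 in the 3KR and 14.0 and 19.5 in the wild-type libraries. Sites that only the wild-type line listed had medians of 10.02 and 13.97. The 1973 SUMO-2/3 sites that only the 3KR line listed had medians of 9.25 and 12.4, close to those of the 3KR-SUMO class. In at least 1 library the fold was under 10 at 70.1% of the SUMO-2/3 sites of the 3KR-SUMO class, against 39.5% of that list and 69.4% of the sites listed in the 3KR line only.

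**Figure D3:**
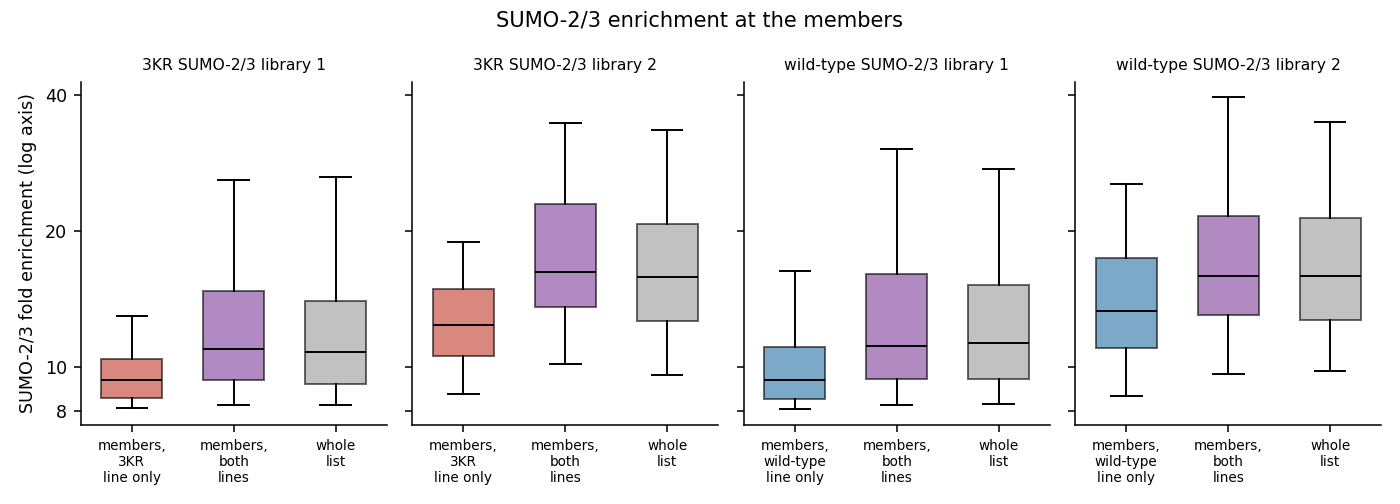
SUMO-2/3 fold enrichment (log axis) of the SUMO-2/3 site with most shared bases at each member, in the 4 SUMO-2/3 libraries, beside all sites of the same list. Boxes give quartiles and the median and whiskers the 5th and 95th percentiles over members or sites. Members with SUMO-2/3 in a single line lie low in every library, and both-line members lie near the whole list.

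Within a class, GR rank and SUMO-2/3 rank were at most weakly related. Spearman's rho between the GR rank and the SUMO-2/3 rank was -0.01 over the 278 3KR-SUMO sites, 0.19 over the 164 wild-type-SUMO sites, and -0.05 (3KR list) and -0.04 (wild-type list) over the 174 both-line sites. These are descriptions across sites that share libraries, and they carry no p-value. The 6 members with the best SUMO-2/3 rank in each line were all both-line members, with GR ranks from 8862 to 18680. At chr22:35767709-35768590 SUMO-2/3 had 274 and 415 tags in the wild-type and 245 and 484 in the 3KR libraries, at folds between 47.4 and 61.4, and ranked 58 and 16 in its lists. GR there had 86 and 131 tags at folds of 8.59 and 11.0, rank 16198 of 18856.

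Other members paired strong SUMO-2/3 with a low GR fold, though not always with few GR tags. At chr17:76553723-76555518 SUMO-2/3 had 442 and 709 tags in the wild-type and 476 and 798 in the 3KR line. GR there had 213 and 348 tags at folds of 10.7 and 11.7. At chr1:161493248-161493893 SUMO-2/3 folds were 44.8 and 43.2 in the wild-type and 51.0 and 44.0 in the 3KR line, and GR had 89 and 109 tags. At chr14:21078071-21080110 SUMO-2/3 had 1117 and 3155 tags in the wild-type and 767 and 1227 in the 3KR libraries. GR there had 222 and 331 tags at folds of 10.2 and 8.04. GR tags at the chromosome 17 and 14 sites lay above the medians of the 3KR GR list (195 and 172.5). These 3 sites rank at 14442 or below in the 3KR GR list. GR fold was higher at chr16:740039-740697, at 17.5 and 15.5. SUMO-2/3 folds there were 43.2 and 56.2 in the wild-type and 31.2 and 49.1 in the 3KR line.

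**Figure D4:**
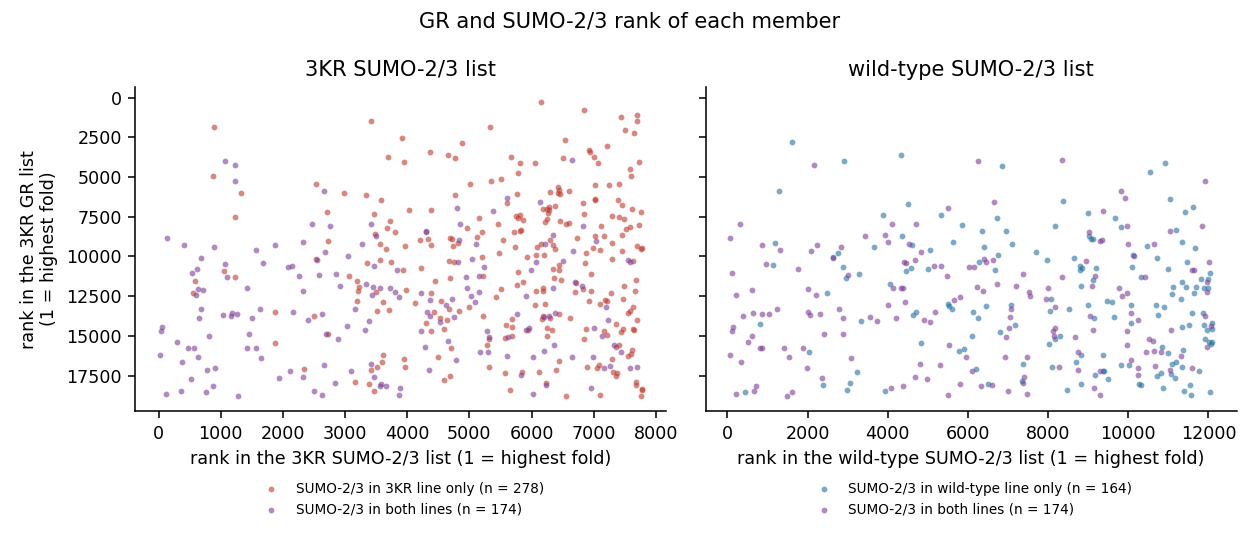
Rank in the 3KR GR list (vertical axis, 1 at the top) against rank in the 3KR (left) or wild-type (right) SUMO-2/3 list for each member, coloured by class. Points of the 3KR-SUMO class crowd at weak SUMO-2/3 ranks over the whole range of GR ranks, and the 6 best SUMO-2/3 ranks in each panel belong to both-line members with GR ranks from 8862 to 18680.

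At both-line members SUMO-2/3 tags can be set side by side, since each line lists a SUMO-2/3 site there. The wild-type and 3KR sites of a pair need not span the same bases, and tags were not scaled to width. At chr17:8057245-8058598, for example, the wild-type SUMO-2/3 site is 4709 bp wide and the 3KR one 1992 bp. Median widths at both-line members were 1509 bp (wild-type) and 1297 bp (3KR), against 1171 and 1042 bp over all sites listed in both lines. The comparison used 172 pairs of overlapping wild-type and 3KR SUMO-2/3 sites at members, and set each library's median there against its median over all 5811 such pairs, because the libraries differ in depth. Median tags at members were 178 and 292 in wild-type libraries 1 and 2 and 138 and 285 in 3KR libraries 1 and 2. Over all pairs they were 166 and 270, and 110 and 220. On the log2 scale, tags at members thus lay above all pairs by 0.10 and 0.11 in the wild-type libraries. In the 3KR libraries they did so by 0.33 and 0.37. By fold enrichment the members lay below all pairs in every library. These log2 values, members minus all pairs, were -0.33 and -0.29 in the wild-type and -0.08 and -0.11 in the 3KR libraries. In these log2 values relative to all pairs, the wild-type and 3KR libraries did not overlap, by tags or by fold. Their median tags as deposited did overlap. The difference in tags, wild-type minus 3KR, was -0.25 (-0.28 to -0.21 in pairs of single libraries). The sites were chosen by SUMO-2/3 peaks of these same 4 libraries, and 2 libraries against 2 cannot reach a threshold of 0.05, so the difference is a description and carries no p-value.

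The sign of that difference depends on the scaling. Without centring on all pairs the wild-type value was higher by 0.20, and with fold in place of tags the centred difference was -0.22. Relative to other SUMO-2/3 sites of both lines, 109 of the 172 pairs (63.4%) leaned to the 3KR line, with a median of -0.20 and quartiles of -0.52 and 0.12. At SUMO-2/3 sites with GR in both lines the median was 0.08. The choice of members by GR in the 3KR line alone and a difference in SUMO-2/3 between the lines cannot be told apart here.

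Seen from the SUMO-2/3 lists, sites found in the 3KR line only were the ones that met 3KR-only GR most often. Of 1973 SUMO-2/3 sites listed in the 3KR line only, 269 (13.6%, 12.2 to 15.2) touched a 3KR-only GR site. Of the 5811 also listed in the wild-type line 178 (3.06%, 2.64 to 3.54) did. In the wild-type list, it was 147 of 6329 sites listed in that line only (2.32%) and 186 of 5780 listed in both (3.22%). A larger number of 3KR-only SUMO-2/3 sites, 491 (24.9%), touched a wild-type GR site. The rule chose members with these lists, so the shares describe its outcome.

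The 3KR-SUMO and both-line members were somewhat broader than other 3KR-only sites, and both-line members lay on broad SUMO-2/3 sites. Median width was 1045 bp for 3KR-SUMO, 891 bp for wild-type-SUMO and 976 bp for both-line members, against 898 bp for 3KR-only sites without SUMO-2/3. SUMO-2/3 sites of the wild-type list were 1509 bp wide at both-line members (median), against 1080 bp over the list, and in the 3KR list 1297 bp against 1036 bp over the list. A broader site meets another list more readily, and the part of width in the overlap was not tested. Centres of GR and SUMO-2/3 sites lay 83.5 bp apart (median) at 3KR-SUMO members, 95.5 bp at wild-type-SUMO members, and 115 bp (3KR list) and 137 bp (wild-type list) at both-line members. At sites with GR in both lines the values were 65.0 bp and 64.0 bp. Within 200 bp lay 71.6% of 3KR-SUMO and 62.8% of wild-type-SUMO members, against 78.5% and 78.0% of sites with GR in both lines, so the centres lay closer at the latter. The SUMO-2/3 site spanned the whole GR site at 79 of 278 3KR-SUMO and 91 of 164 wild-type-SUMO members.

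The limits of the rule are passed by few bases at some sites. Just inside the GR limit lay chr7:30182970-30183974, which was directly adjacent to a wild-type GR site (1 bp from base to base; GR folds 8.74 and 16.9), chrX:106959939-106960865 (20 bp) and chr16:11768466-11768519 (29 bp). Just outside lay chr17:77025375-77025529, which shared 22 bp with a wild-type site (folds 10.95 and 31.2), and chr3:52563812-52564469, which shared 28 bp. For SUMO-2/3 the member with the smallest overlap shared 2 bp, and 16 members shared fewer than 100 bp. Just outside, chr10:22945654-22946646 lay 12 bp from a SUMO-2/3 site, and 125 of 8238 sites without SUMO-2/3 lay within 500 bp of one.

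Wild-type GR lay nearer to members than to other 3KR-only sites. The median distance to the nearest wild-type GR site was 44908 bp for 3KR-SUMO, 25462 bp for wild-type-SUMO and 29424 bp for both-line members, against 56044 bp for 3KR-only sites without SUMO-2/3. Of all 3KR-only sites 2.24% lay within 500 bp of a wild-type site. For members it was 35 of 616 (5.68%, 3.99 to 7.81), and for wild-type-SUMO members 15 of 164 (9.15%, 5.21 to 14.6). Without these 35 sites 581 members remained.

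Some members are fragments of a peak that also makes another site. When a wide peak of one library meets several peaks of the other, it gives several sites with the same tags, fold, length and summit. This was so in at least 1 library for 54 members (8.77%, 6.65 to 11.3), against 3.12% (2.76 to 3.52) of 3KR-only sites without SUMO-2/3. For 28 members (4.55%) the other site had GR in both lines, so that the same 3KR peak was in part shared with the wild-type line. On chromosome 17, the 71 bp member at 77022294 and the site at 77025375, which is shared with the wild-type line, both carry 764 tags and a fold of 31.2 in library 2. Without peaks that make several sites 562 members remained, 258 of the 3KR-SUMO, 158 of the both-line and 146 of the wild-type-SUMO class. The share with a higher fold in library 2 was then 32.2% for members, 45.9% for wild-type-SUMO members and 13.1% for 3KR-only sites without SUMO-2/3.

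Members that lie together illustrate this. Of 593 runs of members with gaps of at most 10 kb, 573 held 1 member, 20 held 2 or 3, and the runs with 3 were on chromosomes 6, 9 and 18. On chromosome 18 the members chr18:3446595-3448804, chr18:3448812-3448963 and chr18:3449810-3450896 met 1 SUMO-2/3 site of 3383 bp with 329 and 844 tags in the 3KR line. The last of them also met a wild-type SUMO-2/3 site with 135 and 327 tags. On chromosome 6, the members chr6:35692371-35692659, chr6:35697084-35697089 (6 bp wide) and chr6:35698394-35701430 lay within 351 bp of wild-type GR sites, and all had a control-line GR site. GR tags in libraries 1 and 2 were 1756 and 387, 471 and 1996, and 533 and 1135 at these sites, so each library was the higher one somewhere in the run. The 3 members on chromosome 9, from 128400685 to 128402715, were wild-type-SUMO sites with 76 to 117 GR tags and met the same SUMO-2/3 site of 122 and 132 tags.

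GR of the control line, whose list the rule did not use, was rare at members, as it was at other 3KR-only sites. Of all 3KR GR sites 4.79% had a control-line GR site. Among members it was 11 of 616 (1.79%, 0.895 to 3.17), with 5 of 278 3KR-SUMO, 5 of 174 both-line and 1 of 164 wild-type-SUMO sites. Of 3KR-only sites without SUMO-2/3 it was 83 of 8238 (1.01%, 0.803 to 1.25), and of sites with GR in both lines 8.10%. The rule leaves out sites with GR in both lines, so a share below that of the whole list follows in part from the rule. The intervals of members and of 3KR-only sites without SUMO-2/3 overlap. Control-line GR has 1 library, so the share has no replicate check. The design text names that library and an input sample as controls for GR, and whether it also served as background when the 3KR peaks were listed is not stated, so the share may depend on the listing itself. Only 5 of the 11 had peaks that make no other site. They included chr4:153486199-153487158 and chr11:99289100-99290230 of the 3KR-SUMO class, with 245 and 190 GR tags at the first and 229 and 138 at the second. The nearest wild-type GR sites lay 291068 and 1213218 bp away. The others were chr8:123697862-123699674 (255 and 237 GR tags), chr6:26122362-26123989 (311 and 273) and chr6:26284748-26287742 (294 and 407), of the both-line class. The chr6:26284748 member had strong SUMO-2/3 in both lines, with 605 and 818 tags in the wild-type and 562 and 1050 in the 3KR libraries, and GR folds of 8.66 and 10.9.

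Members were spread over chromosomes in a way that differed by class. Chromosomes 2 and 18 held 64 of 278 3KR-SUMO sites (23.0%, 18.2 to 28.4), against 9 of 164 wild-type-SUMO (5.49%), 11 of 174 both-line (6.32%) and 15.2% of 3KR-only sites without SUMO-2/3. Chromosome 18 alone held 21, 0 and 2 members of these classes. Chromosomes 16, 17 and 22 held 42 both-line sites (24.1%, 17.98 to 31.2) and 28 wild-type-SUMO sites (17.1%), against 20 3KR-SUMO sites (7.19%) and 6.87% of 3KR-only sites without SUMO-2/3. Chromosomes 3 and 14 held 16 and 11 wild-type-SUMO but 7 and 3 3KR-SUMO sites. As a share of the 3KR-only GR sites of a chromosome, members were most frequent on chromosome 19 (23 of 110, 20.9%, 13.7 to 29.7), chromosome 22 (17.2%) and chromosome 16 (14.8%), and least on chromosome 13 (3.09%). The SUMO-2/3 lists as a whole differed in the same direction. Chromosome 2 held 8.17% of all 3KR and 4.87% of all wild-type SUMO-2/3 sites, and chromosome 18 held 2.33% and 0.743%. On chromosome 3 it was 5.24% and 8.64%, and on chromosome 14 3.65% and 6.27%. Chromosome 19 held 5.36% and 7.35% of the SUMO-2/3 lists but 1.06% of 3KR-only GR sites without SUMO-2/3. The direction of the difference between the lines on chromosomes 2, 18, 3 and 14 is therefore not particular to the members. Some shares were larger than at sites with GR in both lines and SUMO-2/3. Those sites were not split by the line that lists SUMO-2/3, so they are no like comparison for a single class. Chromosomes 16, 17 and 22 held 4.70%, 6.01% and 2.17% of the 3KR SUMO-2/3 list. Of the wild-type SUMO-2/3 list they held 4.42%, 7.08% and 2.8%. Of sites with GR in both lines and SUMO-2/3, chromosomes 16, 17 and 22 held 11.98% (11.0 to 13.0). Chromosomes 2 and 18 held 8.58% (7.78 to 9.44) of them. The chromosomes were singled out after their values were seen.

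**Figure D5:**
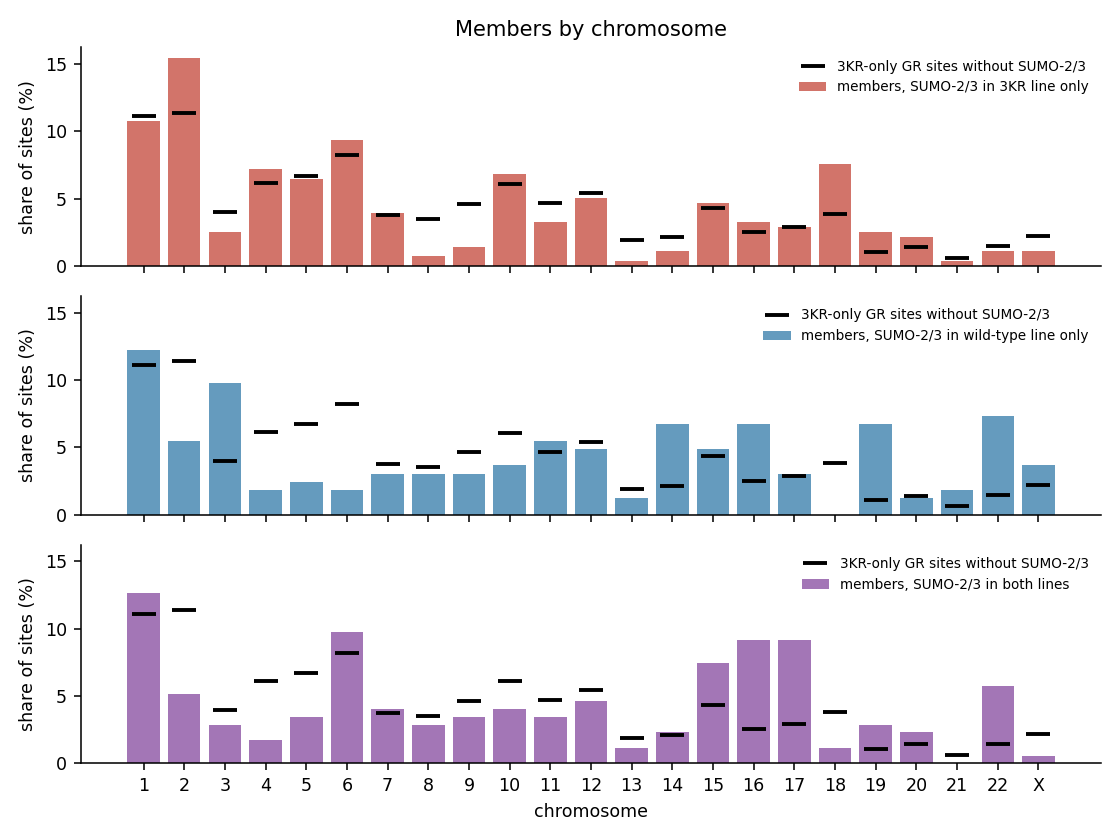
Share of each member class (bars, percent of its sites) by chromosome, with the share of 3KR-only GR sites without SUMO-2/3 as black marks. Bars of the 3KR-SUMO class pass the marks by most on chromosomes 2 and 18, and those of the both-line class on chromosomes 16, 17 and 22.

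The balance of GR tags between the lines also varied along the genome. For GR sites of both lines, tags were compared as log2 of wild-type over 3KR, a mean over pairs of libraries, relative to the median of all such sites. The chromosome median of this ratio was -0.32 on chromosome 2 and -0.62 on chromosome 18, and 0.36 and 0.60 on chromosomes 3 and 14. Other chromosomes did not follow this order: chromosome 20 had a ratio of 0.30 with 6 3KR-SUMO and 2 wild-type-SUMO sites, chromosome 17 had 0.26 with 8 and 5, and chromosome 7 had 0.14 with 11 and 5. Chromosome 22 had a ratio of -0.01 with 3 and 12. In 10 Mb windows with at least 10 such sites, a median within 0.25 of 0 was taken as even, which held for 152 of 270 windows. Of 2429 3KR-only GR sites in windows that leaned to the 3KR line, 99 (4.08%) were 3KR-SUMO and 3 (0.12%) wild-type-SUMO sites. Of 1092 in windows that leaned to the wild-type line, 16 (1.47%) and 47 (4.30%) were. In even windows, 158 (3.10%, 2.64 to 3.61) of 5097 were 3KR-SUMO, 112 (2.20%, 1.81 to 2.64) wild-type-SUMO and 119 (2.33%) both-line sites. The part of DNA content or other regional differences between the lines in this was not tested. The order of 3KR-SUMO above wild-type-SUMO sites was thus present in even windows, at a ratio of 158 to 112 where it was 278 to 164 over all.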

How the data were processed

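Lists of 9 of the 11 samples were used; input and IgG samples were not analysed here. The submitters' processing notes name CASAVA, Bowtie 0.12.9 and hg19. The peak caller was not stated in what was read here. Per the file headers, the authors deposited for each peak a tag count (not normalized), a fold enrichment (ratio), a false discovery rate in percent, a length and a summit. The deposited column headed −log10 of p holds values too high for that scale, and is called a score here and left unused.

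Samples were grouped by title. The series' design text calls the replicates biological duplicates and names no separate cultures, so their spread may be technical. The permutation test planned for SUMO-2/3 tags is not reported, because SUMO-2/3 peaks of the same libraries chose the sites. Both libraries of a group have the same sites, hence 1 list per group, ranked by the mean of both libraries' fold ranks. Sites overlapped where they shared at least 1 bp. Positions are hg19, counted from 1. Shares have exact 95% intervals.

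The sites named were to be the 6 of each class with the best GR rank, the 6 with the best SUMO-2/3 rank in each line, the 3 nearest each limit of the rule, and those near listed genes. Genes, motifs, transcription starts and sequences were left out because hg19 sequence and annotation were not used here. Sites with control-line GR and runs of members were added after their values were seen. Members, classes and lists were chosen with earlier results of these data known. Overlap counting was tested on simulated sites. Python 3.11.15, pandas 2.3.3 and scipy 1.17.1 were used.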

Additional observations from a re-analysis of the deposited data

How the results depend on the processing

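The number of members (616) and of 3KR-SUMO (278), wild-type-SUMO (164) and both-line sites (174) stayed within 1.5 times under 500 bp of distance from wild-type GR, most of the GR site covered by SUMO-2/3, GR centres inside the SUMO-2/3 site, sites of at least 200 bp and peaks that make no other site. The last 3 and both scalings below were chosen after seeing the data. With GR fold at or above the list median in both libraries the counts were 93, 73, 12 and 8, in the order above. With SUMO-2/3 fold at or above its list medians they were 149, 45, 51 and 53, so that 3KR-SUMO sites were then no longer the most frequent class. With an FDR of at most 1 percent in both libraries, 50 wild-type-SUMO and 97 both-line sites remained, beside 337 3KR-SUMO sites, since sites that lose their wild-type SUMO-2/3 peak pass into that class. In even windows 389 members and 158 3KR-SUMO sites remained. Scaling 3KR GR tags and fold to wild-type library 1 left 375 members, 73 wild-type-SUMO and 86 both-line sites. Scaling to library 2 left 251 members, 159, 47 and 45 by class. Each of these settings drops sites or peaks and left fewer members in all, but a class can gain sites, as the 3KR-SUMO class did under the FDR limit.

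The share of members with a control-line site (1.79%) was 3.23% at GR fold above the median, 4.03% at SUMO-2/3 fold above the median, and 0.890% for peaks that make no other site. The mean of the 2 library medians of GR fold at members was 13.3, and 12.3 and 14.3 in a single library. The centred SUMO-2/3 difference at both-line members (-0.25) ran from -0.27 to -0.22 without each library in turn. It reversed to 0.20 without centring, since the libraries of the 2 lines differ in tags at all shared sites. With the replicate block (same-numbered libraries paired) it was -0.25. Library 2 over library 1 correlated between the lines with r = 0.337 across shared SUMO-2/3 sites, but with 2 pairs the numbers were not taken to pair the samples. Of all alternatives run, 43 left their result within these bounds, 22 moved it beyond them and 1 reversed its sign. Summits inside SUMO-2/3 sites, and the motif and start-site settings, were not run. Depth limits every absence, since sites under the listing limits carry no value.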
